A study of Bos taurus with 48 samples.

Results

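The miRNAs described here are those of blood cells and of the immune response: bta-miR-142-5p, bta-miR-142-3p, bta-miR-150, bta-miR-223, bta-miR-155, bta-miR-146a and bta-miR-146b. They were chosen by name, as every row for miR-142, miR-146a, miR-146b, miR-150, miR-155 or miR-223 with any arm suffix, which gave 7 of the 524 bovine miRNAs. The samples were 48 small RNA libraries of cows, from liver (17), mammary parenchyma (15) and the mammary fat pad (16). The animals had received milk replacer ad libitum (6 samples per tissue), a restricted amount of milk replacer (6 per tissue) or the control treatment (5 liver, 3 parenchyma and 4 fat pad samples). The sources used here do not give age, breed or what the control animals were fed. All were tissue pieces taken at slaughter, so each value is a mixture of cell types, and in such samples fewer cells of a type and less RNA per cell cannot be told apart.

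A mature miRNA guides an Argonaute protein to messenger RNAs, mainly through its seed, bases 2 to 8 counted from the 5′ end. Known mostly from human and mouse, miR-142 is made throughout the blood cell lineages and gives an abundant product from each arm of its hairpin. miR-150 marks mature lymphocytes and represses the transcription factor MYB, and miR-223 marks granulocytes and monocytes. miR-155 is made from a longer host transcript that is switched on in activated lymphocytes and macrophages. miR-146a and miR-146b come from separate genes, differ by few bases near the 3′ end, share a seed, and are switched on through NF-κB, after which they dampen the adaptor proteins IRAK1 and TRAF6 of Toll-like receptor signalling. By name the RefSeq annotation places the bovine miR-142 gene within the span of TSPOAP1 and the miR-223 gene within that of VSIG4, while the nearest coding gene was PTTG1 for miR-146a, C26H10orf95 for miR-146b and MRPL39 for miR-155.

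For miR-223, the only member assayed by qPCR in the study, the assay and its isomiRs (length and sequence variants seen in reads) were listed as sequences. They are shown because the counts of a miRNA can hold such variants, and 11 of the 12 listed variants, of 21 to 25 bases, kept the seed. The assayed form, the shortest variant and variant 6, which starts 1 base later so that its bases 2 to 8 are shifted, are printed with the seed of the assayed form in capitals where it is kept.
hsa-miR-223-3p: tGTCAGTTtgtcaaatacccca
variant 2: tGTCAGTTtgtcaaataccca
variant 6: gtcagtttgtcaaataccccaaa

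The values are normalised read counts, that is, reads per miRNA divided by the authors with 1 size factor per library. Estimated reads per library were 826776 to 5146724 for liver, 6193678 to 11291532 for parenchyma and 2123962 to 9522666 for the fat pad. The lowest value above 0 stood for 6 reads, which was 5.68 to 37.2 normalised read counts in liver, 1.58 to 3.47 in parenchyma and 2.99 to 13.99 in the fat pad. All 7 members were above 0 in all 48 samples. The labels do not say that samples came from separate animals, so the p-values measure the spread between these samples. Hepatocyte miRNAs (miR-122, miR-192, miR-194-2 and miR-885) summed to 884709 or more in each liver sample, against 11903 or less in each mammary sample. Of these, miR-122 was at 3058 in control parenchyma sample 1, against 91.4 and 3.92 in control parenchyma samples 2 and 18.

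The 3 control parenchyma libraries went against their label. Their 10 epithelial miRNAs (the miR-200 and miR-183 families, miR-205 and miR-375) summed to 421, 92.5 and 291 in controls 1, 2 and 18, against 61371 to 110903 in the milk-replacer-fed parenchyma and 17.4 to 436 in the fat pad. miR-429 and miR-375 were listed at 0 in all 3. Control 18, column 18PPP of the table, also stood apart from controls 1 and 2 in the members. Its adipocyte-linked miRNAs (miR-378-2, miR-103-2 and miR-193b) summed to 19254, against 90847 and 91181 in controls 1 and 2. miR-378-2 carried most of this, at 8370 against 80478 and 81687. miR-193b was also lower, at 41.2 against 1215 and 1046. miR-103-2 went the other way, at 10843 against 9155 and 8448. The tissue contrasts were therefore drawn over the 36 milk-replacer-fed samples, 12 per tissue, and the parenchyma control comparison is given with and without column 18PPP.

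**Figure D1:**
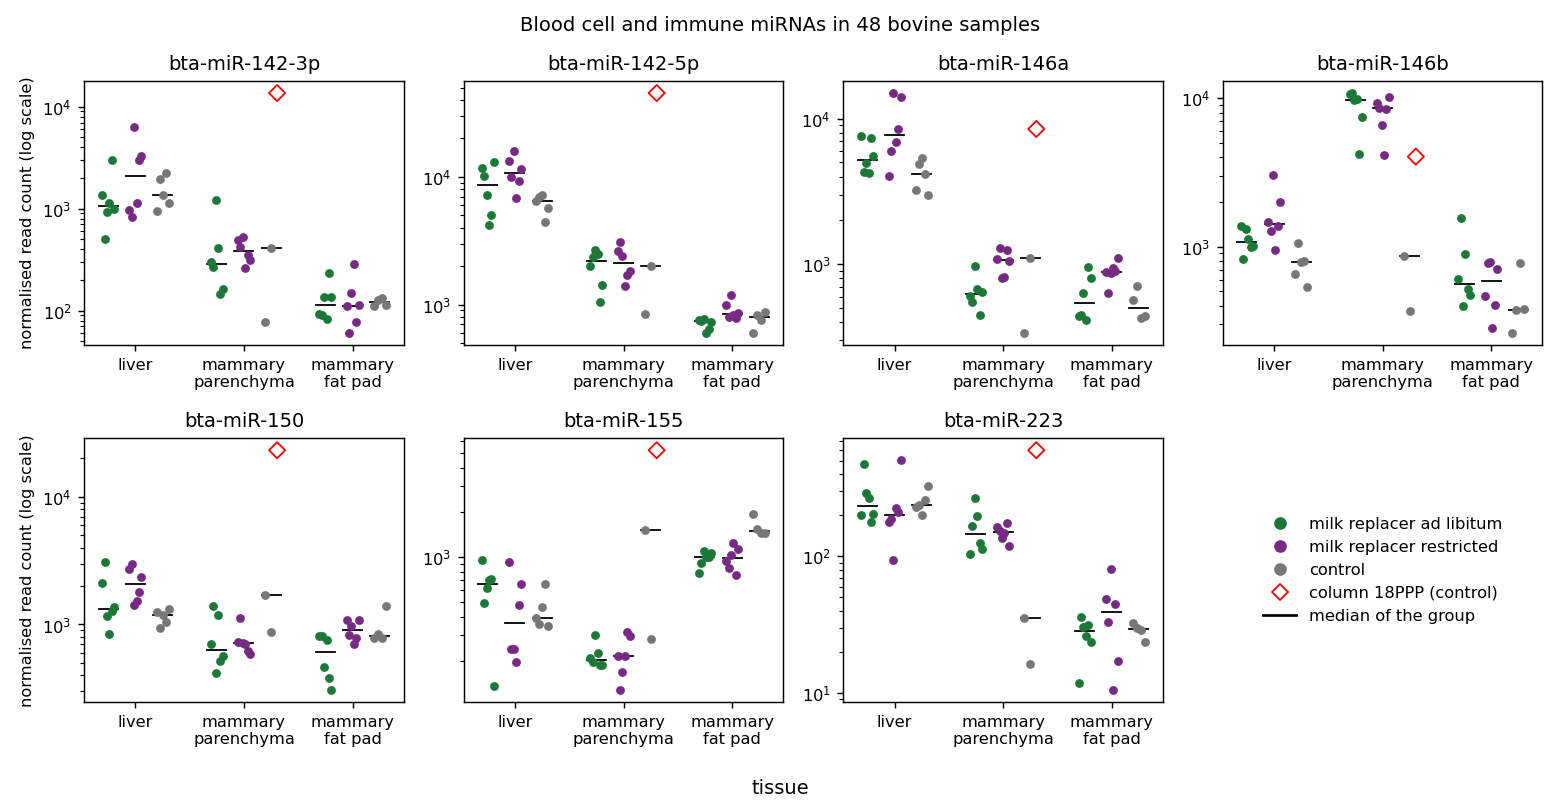
Normalised read counts (log scale) of the 7 members in each sample, by tissue (x axis) and feeding group (colour). Bars are group medians and the red diamond is column 18PPP, which lies above the other 14 parenchyma samples for 6 of 7 members and below all fed parenchyma samples for bta-miR-146b.

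Liver held the highest fed-sample medians of 5 members (for miR-223 the difference from parenchyma changed sign with the scaling), parenchyma that of miR-146b and the fat pad that of miR-155. Each of the 7 passed the test between liver and parenchyma (adjusted p under 0.05, limma), where 77.7% of all 345 miRNAs tested did, with 6 higher and 1 lower in liver. Likewise 7 passed between liver and the fat pad, where 79.1% of all did, again 6 higher and 1 lower. Between parenchyma and the fat pad 5 passed, against 74.5% of all, with 4 higher and 1 lower in parenchyma. The median log2 fold change of the members was 1.27, 2.97 and 1.32 in these contrasts, and over all miRNAs tested it was -0.46, -0.22 and 0.37. With each sample rescaled to the same sum, the median of all miRNAs moved by -0.47, -0.27 and 0.38, and such a shift bears on the smaller differences given next.

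**Figure D2:**
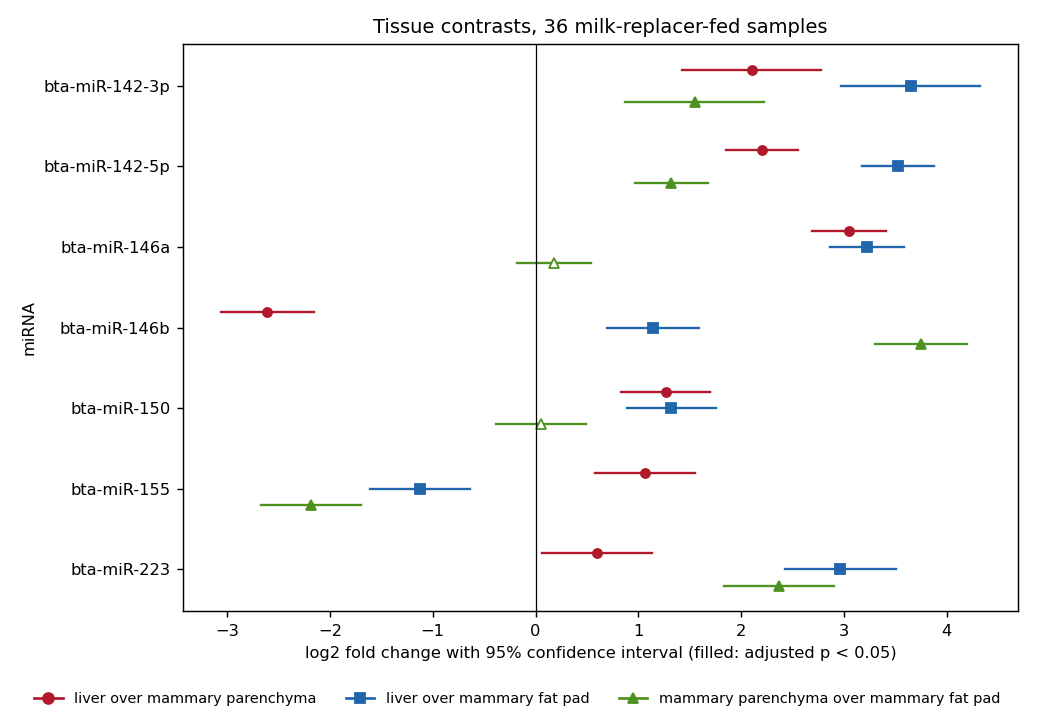
Log2 fold changes of the 7 members between tissues in the 36 fed samples, with 95% confidence intervals. Filled symbols passed an adjusted p of 0.05, and bta-miR-146b and bta-miR-155 are the members with points on the left of 0. After rescaling, the liver over parenchyma point of bta-miR-223 turns to -0.13.

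The miR-142 arms fell in steps between the tissues. bta-miR-142-5p was between 4200 and 15943 in fed liver (median 10046), between 1048 and 3111 in parenchyma (median 2175) and between 600 and 1192 in the fat pad (median 780). The liver samples lay above every fed mammary sample, while 1 parenchyma sample lay within the fat pad's range. The log2 fold change was 2.20 for liver over parenchyma (standard error, SE, of 0.17, adjusted p = 5.34e-14, limma), 3.53 for liver over the fat pad (SE 0.17, adjusted p = 4.51e-20, limma) and 1.32 for parenchyma over the fat pad (SE 0.17, adjusted p = 2.14e-08, limma). bta-miR-142-3p followed the same order at lower counts, with medians of 1140, 335 and 112 and log2 fold changes of 2.10, 3.65 and 1.55 (SE 0.33 each). The 5p arm was the more abundant in all 48 samples. Its ratio to the 3p arm spread between 1.67 and 19.8 in fed liver, between 2.19 and 8.89 in parenchyma and between 2.79 and 13.4 in the fat pad, and the 3 ranges overlapped. Within a tissue the arms moved together in the 12 fed parenchyma samples (Pearson r = 0.77 on the log2 scale) and little in liver (r = 0.15) or the fat pad (r = 0.09), a description over samples that share their library and scaling.

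miR-150, the lymphocyte miRNA, was higher in liver than in either mammary tissue. It was between 837 and 3105 in fed liver (median 1664), between 416 and 1403 in parenchyma (median 699) and between 305 and 1085 in the fat pad (median 794). The ranges overlapped in each pair of tissues. bta-miR-150 was higher in liver by 1.27 on the log2 scale against parenchyma (SE 0.21, adjusted p = 1.64e-06, limma) and by 1.32 against the fat pad (SE 0.21, adjusted p = 8.55e-07, limma). Between parenchyma and the fat pad its log2 difference was 0.05, with a 95% confidence interval from -0.38 to 0.49. Rescaled values gave 0.51 there (adjusted p = 0.0449, limma), a call that the deposited scaling did not make.

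miR-223, the myeloid miRNA, was the least abundant member in each tissue. bta-miR-223 was between 93.5 and 505 in fed liver (median 208), between 104 and 269 in parenchyma (median 151) and between 10.4 and 80.2 in the fat pad (median 31.0). Fed liver and parenchyma both lay above every fat pad sample, and they overlapped each other. It was 7.81-fold higher in liver than in the fat pad (log2 fold change 2.97, SE 0.26) and 5.16-fold higher in parenchyma than there (2.37, SE 0.26). Liver over parenchyma was 0.60 (SE 0.26, adjusted p = 0.0383, limma), a call that was lost when any 1 of 9 samples of the 36 was left out and that turned to -0.13 after rescaling. Ratios of miR-150 to miR-223 had medians of 6.95 in fed liver, 5.00 in fed parenchyma and 22.6 in the fed fat pad, and those of the fat pad began at 12.1, above all fed parenchyma samples, whose highest was 8.47.

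miR-155, the miRNA of activated immune cells, ran against the other members. It was the most abundant member in the fed fat pad, between 765 and 1253 (median 1001), while in fed liver it was between 136 and 954 (median 556) and in parenchyma between 128 and 316 (median 213). Every fed fat pad sample was above every fed parenchyma sample. bta-miR-155 fell by 2.18 on the log2 scale in parenchyma against the fat pad (SE 0.24, adjusted p = 3.81e-10, limma) and by 1.12 in liver against the fat pad (SE 0.24, adjusted p = 6.47e-05, limma). The endothelial miR-126 arms summed to 52569 to 106702 in fed parenchyma and 89178 to 285190 in fed liver, against 254628 to 431282 in the fed fat pad, and their part in these differences was not tested. Liver exceeded parenchyma by 1.06 (SE 0.24, adjusted p = 0.000135, limma), but after rescaling this was 0.32 (adjusted p = 0.209, limma).

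The miR-146 paralogs split between liver and parenchyma. The sources used here do not say how reads that fit both were assigned, so their separate levels are uncertain to that extent. bta-miR-146a was between 4013 and 15004 in fed liver (median 6435), between 449 and 1295 in parenchyma (median 812) and between 412 and 1102 in the fat pad (median 838). The liver samples lay above all others and the mammary tissues overlapped. Liver was 8.29-fold above parenchyma (log2 fold change 3.05, SE 0.18) and 9.37-fold above the fat pad (3.23, SE 0.18). Parenchyma over the fat pad was 0.18 (95% confidence interval from -0.18 to 0.54, adjusted p = 0.374, limma). Rescaled values gave 0.63 (adjusted p = 0.000981, limma).

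bta-miR-146b was instead between 4118 and 10836 in fed parenchyma (median 8965), where no other member was as abundant. It was between 824 and 3023 in fed liver (median 1290) and between 282 and 1549 in the fat pad (median 562). Every fed parenchyma sample was above every fed sample of the other tissues. It was lower in liver than in parenchyma by -2.61 (SE 0.22, adjusted p = 3.57e-13, limma), 13.4-fold above the fat pad in parenchyma (log2 fold change 3.75, SE 0.22) and 2.21-fold above it in liver (1.14, SE 0.22). These differences moved with the epithelial miRNAs of the fed parenchyma given above, and their part in the result was not tested.

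Taken within a sample, the ratio of miR-146b to miR-146a does not depend on the size factor. It was between 0.135 and 0.363 in fed liver, between 5.00 and 19.8 in fed parenchyma and between 0.300 and 3.48 in the fed fat pad. The fed parenchyma ratios lay above all others and the liver and fat pad ranges overlapped only at their ends. Within fed parenchyma the ratio was 9.42 to 19.8 in the ad libitum samples and 5.00 to 9.62 in the restricted samples, which overlapped by a single sample each, and the ratio was not tested between them. In the 3 control parenchyma libraries it was 2.56, 0.336 and 0.475.

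**Figure D3:**
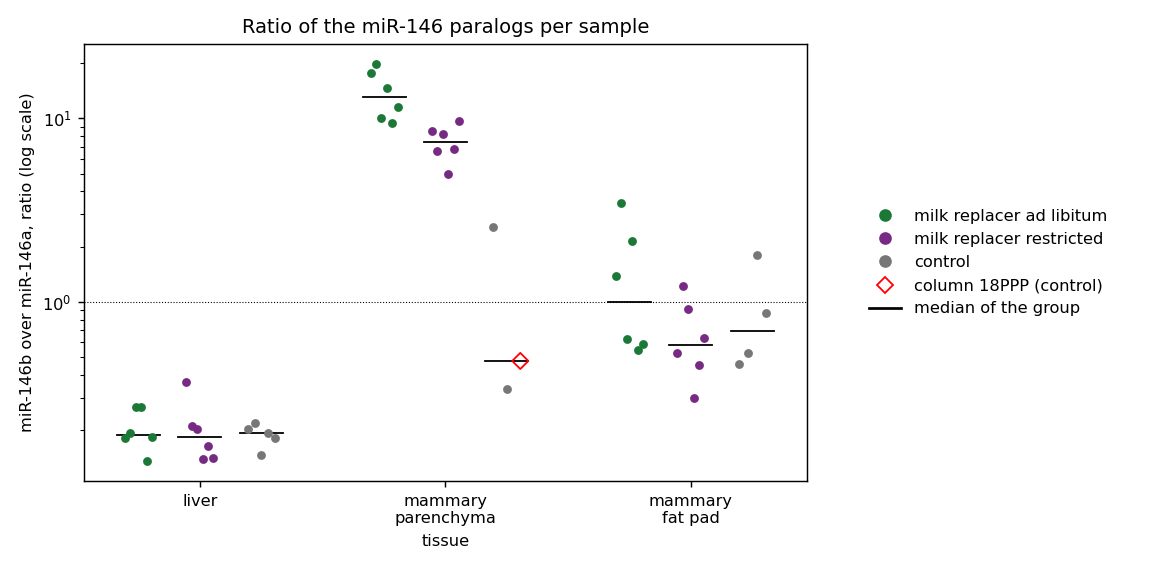
Ratio of bta-miR-146b to bta-miR-146a in each sample (log scale), by tissue and feeding group, with group medians as bars. All 12 fed parenchyma samples are at 5.00 or more, all liver samples at 0.363 or less, and column 18PPP (red diamond) is at 0.475.

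Feeding milk replacer ad libitum rather than restricted gave no member that passed the test in any tissue. In liver 0 of 7 passed (0 at an unadjusted p under 0.05, limma), where 0% of the 308 miRNAs tested did. In parenchyma 0 of 7 passed (1 at an unadjusted p under 0.05, limma), where 0% of 333 did. In the fat pad 0 of 7 passed (3 at an unadjusted p under 0.05, limma), where 16.4% of 305 did. Of all miRNAs tested, 12 of 308 in liver were at an unadjusted p under 0.05 (limma). There were 11 of 333 in parenchyma and 97 of 305 in the fat pad. The differences of these effects between tissues also gave 0 calls among the members (0 at an unadjusted p under 0.05, limma), against 0% of 345 miRNAs for liver minus parenchyma, 0.870% for liver minus the fat pad and 0% for parenchyma minus the fat pad.

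miR-146a had the lower level with ad libitum feeding in each tissue, without passing. This direction was not its alone. In liver, parenchyma and the fat pad the log2 fold changes were -0.46, -0.15 and -0.35 for bta-miR-142-5p and -0.45, -0.02 and -0.71 for bta-miR-150. In parenchyma miR-146a was between 449 and 973 in ad libitum samples (median 622) and between 801 and 1295 in restricted samples (median 1076). A single ad libitum sample reached into the restricted range. bta-miR-146a had a log2 fold change of -0.72 there (SE 0.21, unadjusted p = 0.00325, adjusted p = 0.900, limma). In the fat pad it was between 412 and 956 in ad libitum samples (median 538) and between 635 and 1102 in restricted samples (median 888), a log2 fold change of -0.59 (SE 0.22, adjusted p = 0.0757, limma). In liver, where the samples spread widest, it was -0.57 (95% confidence interval from -1.22 to 0.07). The adjusted p in the fat pad was 0.0300 without ad libitum sample 11 and 0.0452 without restricted sample 5 (limma). With other samples left out it rose to as much as 0.168 (limma). Rescaling each sample to the same sum moved the median of all miRNAs in this fat pad contrast by 0.145, and 0 members passed.

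In the fat pad bta-miR-142-5p and bta-miR-150 were also close to the threshold. bta-miR-142-5p was between 600 and 770 in the 6 ad libitum samples and between 789 and 1192 in the 6 restricted samples. The share of all miRNAs with groups parted in this way was not counted. The log2 fold change of bta-miR-142-5p was -0.35 (SE 0.12, adjusted p = 0.0696, limma). bta-miR-150 was between 305 and 818 in ad libitum samples (median 609) and between 699 and 1085 in restricted samples (median 898), a log2 fold change of -0.71 (SE 0.25, adjusted p = 0.0674, limma). Without ad libitum sample 3 or 6 its adjusted p was 0.0386 and 0.0482, and with other samples left out it rose to as much as 0.130 (limma). For bta-miR-142-5p the adjusted p ran from 0.0542 to 0.148 with any 1 sample left out (limma). The remaining members of the fat pad overlapped widely, and bta-miR-155 differed by -0.02 (95% confidence interval from -0.31 to 0.28).

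Milk replacer against the control treatment gave calls in each tissue, and the parenchyma calls rest on the unlike control libraries. In liver 1 of 7 members passed, against 6.80% of 309 miRNAs tested. In the fat pad 1 of 7 passed, against 11.0% of 301. In parenchyma 3 of 7 passed, against 45.4% of 339, and without column 18PPP 3 of 7 passed, against 48.2% of 336. The members' median log2 fold change in parenchyma was -1.09 with column 18PPP and 0.62 without it, where the median of all miRNAs was 0.13 and 0.27.

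In liver bta-miR-146b was the member that passed. It was between 824 and 3023 in the 12 fed samples (median 1290), against 654, 1059, 783, 802 and 537 in controls 1, 2, 18, 19 and 21, which overlapped the lowest fed samples. Its log2 fold change was 0.80 (SE 0.23, adjusted p = 0.0459, limma). It failed when any of 10 of the 17 samples was left out, and after rescaling it was 0.57 (adjusted p = 0.103, limma). bta-miR-146a (0.74), bta-miR-142-5p (0.61) and bta-miR-150 (0.61) had positive log2 fold changes with an unadjusted p under 0.05 that did not pass (adjusted p between 0.107 and 0.186, limma). Of all 309 miRNAs tested in liver, 59 were at an unadjusted p under 0.05 (limma).

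In the fat pad bta-miR-155 was the member that passed. It was between 765 and 1253 in the 12 fed samples (median 1001), against 1952, 1547, 1450 and 1460 in controls 2, 18, 19 and 21. Every control sample was above every fed sample. The log2 fold change was -0.70 (SE 0.13, adjusted p = 0.00341, limma), and it was between -0.74 and -0.60 with any 1 sample left out, each past the threshold. The endothelial miR-126 arms summed to 254628 to 431282 in the fed fat pad and to 357955 to 602206 in the control fat pad, and their part in the result was not tested.

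In parenchyma bta-miR-146b was between 4118 and 10836 in the fed samples, against 860, 370 and 4040 in controls 1, 2 and 18, all of them below every fed sample. Its log2 fold change was 2.87 (SE 0.49, adjusted p = 0.000142, limma), and 3.82 without column 18PPP (SE 0.39, adjusted p = 8.68e-07, limma). bta-miR-155 was between 128 and 316 in the fed samples, against 1533, 284 and 5237 in the controls, the second of which lay within the fed range. It had a log2 fold change of -2.61 (SE 0.54, adjusted p = 0.000698, limma), and -1.62 without column 18PPP (adjusted p = 0.00627, limma).

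bta-miR-150 and bta-miR-223 changed with column 18PPP. bta-miR-150 was between 416 and 1403 in the fed samples, against 1691, 873 and 23130 in the controls, with a log2 fold change of -2.16 (SE 0.64, adjusted p = 0.0108, limma) that became -0.74 without column 18PPP (adjusted p = 0.137, limma). bta-miR-223 was between 104 and 269 in the fed samples, against 35.6, 16.2 and 599 in the controls. Its log2 fold change of 1.07 (SE 0.66, adjusted p = 0.205, limma) became 2.60 without that column (SE 0.35, adjusted p = 1.85e-05, limma). bta-miR-142-3p, bta-miR-142-5p and bta-miR-146a were at -1.13, -1.09 and -0.86 with it and at 0.96, 0.62 and 0.41 without it, and passed neither way. Without control 1 instead, 6 of 7 passed, against 47.2% of the miRNAs tested. The epithelial miRNAs, which are lower in all 3 controls, moved with this comparison, and their part in it was not tested.

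**Figure D4:**
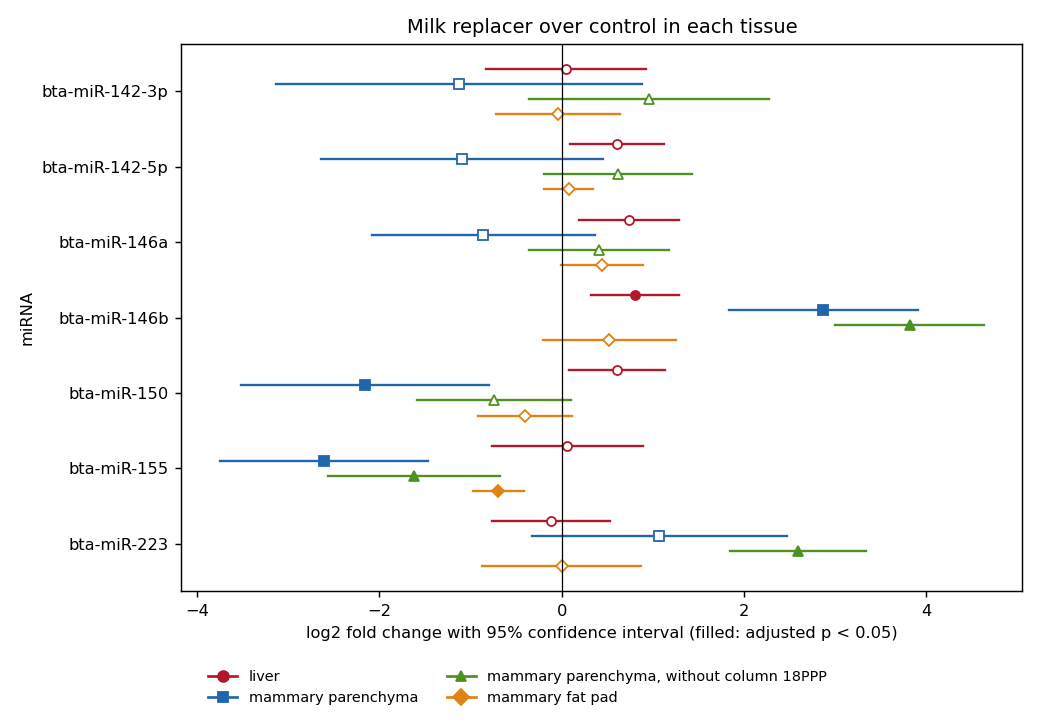
Log2 fold changes of milk replacer over control for the 7 members in each tissue, with 95% confidence intervals, and for parenchyma also without column 18PPP. Filled symbols passed an adjusted p of 0.05. bta-miR-150 is at -2.16 with column 18PPP and at -0.74 without it, bta-miR-223 at 1.07 and 2.60. After rescaling, bta-miR-146b in liver is at 0.57 and does not pass.

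The test of the difference of this effect between tissues passed for 5 members in liver minus parenchyma, against 40.3% of 345 miRNAs, for 0 in liver minus the fat pad, against 11.3% (0 at an unadjusted p under 0.05, limma), and for 3 in parenchyma minus the fat pad, against 25.8%. Without column 18PPP the calls were 4, 0 (1 at an unadjusted p under 0.05, where 93 of all 344 were, limma) and 2, against 41.9%, 13.4% and 26.5% of the miRNAs tested. bta-miR-146b passed in both pairs with parenchyma whether column 18PPP was in or out, at -2.07 and 2.35 with it and at -3.01 and 3.29 without it (liver minus parenchyma and parenchyma minus the fat pad). bta-miR-150 (1.35) and bta-miR-155 (1.68) also still passed without it in liver minus parenchyma, while bta-miR-142-5p and bta-miR-146a no longer did, nor did bta-miR-150 and bta-miR-155 in parenchyma minus the fat pad. With the deposited scaling bta-miR-223 passed only without it, at -2.71 in liver minus parenchyma (adjusted p = 0.000117, limma) and at 2.60 in parenchyma minus the fat pad (adjusted p = 0.000575, limma). After rescaling with column 18PPP kept, it was at -1.63 in liver minus parenchyma (adjusted p = 0.0498, limma). That rescaling lost the calls of bta-miR-142-5p and bta-miR-146a in liver minus parenchyma and of bta-miR-150 in parenchyma minus the fat pad.

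Column 18PPP, shown singly, held the highest value of all 48 samples for bta-miR-142-5p, bta-miR-142-3p, bta-miR-150, bta-miR-155 and bta-miR-223, 5 of the 7 members, as it did for 55 of all 524 miRNAs. bta-miR-142-3p was at 13636, against a median of 335 and a highest value of 1212 in the other 14 parenchyma samples, a ratio of 40.6 to the median (values plus 1). bta-miR-150 was at 23130, against a median of 710 and a highest value of 1691 (ratio 32.5). bta-miR-155 was at 5237, against 217 and 1533 (ratio 24.0). bta-miR-142-5p was at 45393, against 1996 and 3111 (ratio 22.7). So these 4 were raised beyond the other parenchyma samples. Against the highest of those samples the ratio was 11.2 for bta-miR-142-3p, 13.7 for bta-miR-150 and 14.6 for bta-miR-142-5p. By that measure bta-miR-155, at 3.41, was raised less than bta-miR-146a, at 6.56. bta-miR-146a, at 8497 against 812 and 1295 (ratio 10.4), was above the other parenchyma samples but within the range of liver. bta-miR-223, at 599, had a ratio of 4.19, and bta-miR-146b, at 4040, a ratio of 0.473. The other 14 samples are mostly fed ones, which were unlike the controls. Controls 1 and 2 were at 35.6 and 16.2 for bta-miR-223 and at 860 and 370 for bta-miR-146b. Against these 2 controls both miRNAs were higher in column 18PPP. In all, the 7 members took 2.67% of the sample's summed values, against 0.226% to 0.530% in fed parenchyma and 0.117% and 0.119% in controls 1 and 2.

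The rise was not one of the whole library. Among the 248 miRNAs at 50 or more in column 18PPP the median ratio was 1.36, and 32.3% were at 2 or more. Of the 10 miRNAs with the largest ratio 5 were members. The others were bta-miR-2332 and bta-miR-2411-3p, each of which was higher in some sample of another tissue, and bta-miR-2285k, bta-miR-2285k-1 and bta-miR-2285p. Among 12 further miRNAs linked to immune cells, bta-miR-363, of the miR-106a cluster, was at 1582 (ratio 7.64) and bta-miR-181a-1, a regulator of lymphocyte receptor signalling, at 59279 (ratio 2.29), while bta-miR-132 was at 85.7 (ratio 0.108). Against the median of the other 14 parenchyma samples, which are mostly fed ones, the list went both ways. Its sum was 333456 in column 18PPP, against 124194 and 111530 in controls 1 and 2 and 160895 to 327420 in fed parenchyma. miR-21-5p alone was at 244335 in that column. miR-21-5p, miR-342 and miR-181b-1 had ratios of 1.70, 1.68 and 1.60. Ratios of miR-147, miR-125a, miR-21-3p, miR-212 and miR-187 were 0.709, 0.696, 0.667, 0.103 and 0.065. miR-9-5p was at 0 in that column. The erythroid miR-451, miR-144 and miR-486 summed to 943 in column 18PPP, against 3727 and 3332 in controls 1 and 2 and 590 to 2297 in fed parenchyma. The liver and fat pad controls that carry the same number lay within the range of the other controls of their tissue for 4 and 6 of the 7 members. In liver bta-miR-142-5p was at 7215, against 4396 to 6930 in the other 4 controls, and bta-miR-150 at 1194, against 946 to 1314. In the fat pad they were at 832, against 597 to 875 in the other 3 controls, and at 841, against 783 to 1399. bta-miR-146a was the highest of the controls in both, at 5361 in liver, against 2979 to 4854, and at 712 in the fat pad, against 430 to 569. This is 1 library with no replicate, so no test was made.

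**Figure D5:**
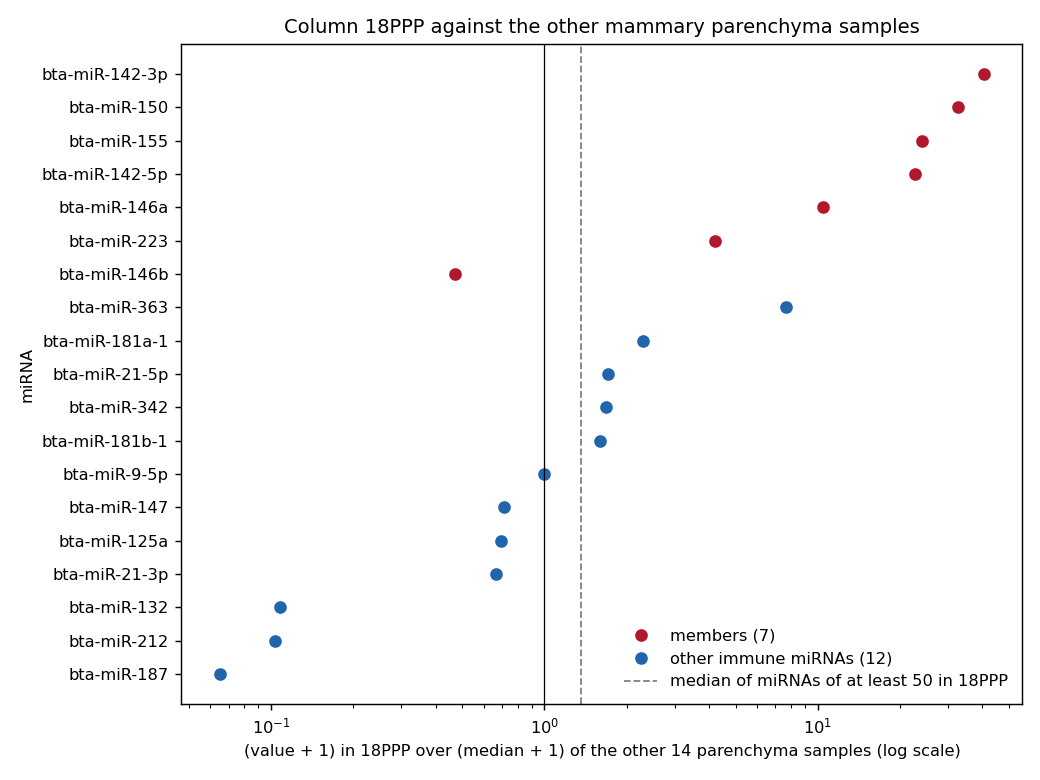
Ratio of column 18PPP to the median of the other 14 parenchyma samples (values plus 1, log scale) for the 7 members (red) and 12 other miRNAs linked to immune cells (blue). The dashed line, at 1.36, is the median of the 248 miRNAs at 50 or more in that column. The members run from 0.473 for bta-miR-146b to 40.6 for bta-miR-142-3p.

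Of the other miRNAs linked to immune cells, a similar share to that of all miRNAs passed between tissues. Of the 11 tested in fed samples, 1 was higher and 8 were lower in liver than in parenchyma, 2 were higher and 6 lower in liver than in the fat pad, and 7 were higher and 0 lower in parenchyma than in the fat pad, against 77.7%, 79.1% and 74.5% of all miRNAs called in either direction. Their median log2 fold changes of -0.95, -0.46 and 0.50 had the sign of those of all miRNAs (-0.46, -0.22 and 0.37). miR-21-5p, an abundant miRNA of many cell types, was the one higher in liver than in parenchyma (log2 fold change 0.60). miR-132 and miR-212, which share a primary transcript, were lower in liver than in parenchyma by -4.68 and -5.86. miR-147 was 5.12 higher on the log2 scale in parenchyma than in fat pad samples, where most samples were at 0. Ad libitum against restricted feeding gave 0 calls among them in every tissue, and milk replacer over control gave 5 higher and 1 lower of 12 in parenchyma, against 45.4% of all called, and 5 higher and 0 lower without column 18PPP, against 48.2%.

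Across the 9 group means of tissue and feeding, with column 18PPP left out, the miRNAs most like each member were found by Pearson r on the log2 scale among 338 candidates, a description in which tissue sets most of the spread. bta-miR-142-3p and bta-miR-142-5p ran closest to miR-505 (r = 0.99 each) and miR-885 (0.99 each), followed by miR-425-5p (0.97) and miR-1388-5p (0.98). bta-miR-146a was most like miR-10225b (0.98), miR-12030 (0.98) and miR-10225a (0.97), and bta-miR-146b most like miR-147 (0.95), miR-200c (0.92) and miR-543 (0.91). bta-miR-150 was most like miR-29d-3p (0.96) and the pair miR-29e and miR-29b (0.93 each). bta-miR-155 was most like miR-126-3p (0.97), miR-151-5p (0.96) and miR-23b-3p (0.94). bta-miR-223 was most like miR-375 (0.99), miR-21-5p (0.98) and miR-31 (0.98). Among the members the arms of miR-142 had an r of 0.99, and miR-146b and miR-155 one of -0.90.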

How the data were processed

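Per the labels, total RNA was extracted from tissue kept in a stabilising solution, and small RNA libraries were prepared with ligated adaptors and amplified. Tools named in the submitters' processing notes are DESeq2, Trim Galore, FastQC and bcl2fastq. How reads were assigned to miRNAs, and on which genome build, is not given in the sources used here. Deposited values (counts of reads divided by the authors with 1 size factor per library) were whole multiples of 1 step in each library (tolerance 0.01) and the lowest above 0 was 6 steps, so a miRNA listed at 0 can have had up to 5 reads. Intervals cover the spread between samples only.

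Values were taken as log2(value + 1), miRNAs with a mean of at least 10 in the samples of a fit were tested with limma 3.58.1 (trend, R 4.3.3), and p-values were adjusted by Benjamini-Hochberg over all miRNAs tested, with a threshold of 0.05. On this scale the added 1 shrinks the fold change of low miRNAs, while values listed at 0 for up to 5 reads can enlarge it. Tissue contrasts used the 36 fed samples with feeding as a term, ad libitum over restricted the 12 fed samples of a tissue, milk replacer over control all samples of a tissue, and differences between tissues a joint fit. Scripts were tested on simulated data. Replicate pairs were compared, and none agreed within sampling noise (109 pairs). The authors' own comparisons in the file were not used. Named miRNAs were all members, the further immune list by counts and by its ratios in column 18PPP, the 3 miRNAs most like each member, and the 10 largest ratios in column 18PPP. From the further list, miR-21-5p, miR-132, miR-212, miR-147, miR-363 and miR-181a-1 were singled out after their values were seen. The members and lists were chosen with earlier results of these data known. Gene neighbours are from RefSeq (ARS-UCD2.0), by name only.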

Additional observations from a re-analysis of the deposited data

Results flagged for a closer look

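In 8 of the 56 member and group combinations of 4 to 6 samples, 1 sample lay far above the rest by the gap to its nearest neighbour over the range of the group (Dixon's test at 95%). Chance gives about 1 in 20 groups for independent, normally distributed values. These were counts not taken to logs, and the same libraries recur across members, so that rate need not hold here. bta-miR-142-3p stood at 2997 in ad libitum liver sample 11 (next highest 1357), at 1212 in ad libitum parenchyma sample 7 (next 413) and at 232 in ad libitum fat pad sample 11 (next 136). bta-miR-150 stood at 1129 in restricted parenchyma sample 5 (next 732) and at 1399 in control fat pad sample 21 (next 841). bta-miR-155 stood at 299.7 in ad libitum parenchyma sample 7 (next 228). bta-miR-223 stood at 477 in ad libitum liver sample 6 (next 289) and at 505 in restricted liver sample 16 (next 227).

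The effect of milk replacer over control differed between tissues for 5 members by the interaction test (limma, log2 scale). For liver minus parenchyma the difference was 1.70 for bta-miR-142-5p (adjusted p = 0.0302), 1.60 for bta-miR-146a (adjusted p = 0.0173), -2.07 for bta-miR-146b (adjusted p = 0.00137), 2.77 for bta-miR-150 (adjusted p = 0.000184) and 2.67 for bta-miR-155 (adjusted p = 0.000243). For parenchyma minus the fat pad it was 2.35 for bta-miR-146b (adjusted p = 0.00113), -1.76 for bta-miR-150 (adjusted p = 0.0302) and -1.91 for bta-miR-155 (adjusted p = 0.0155). Without column 18PPP, 4 of these 8 no longer passed: for liver minus parenchyma bta-miR-142-5p (-0.012) and bta-miR-146a (0.33, adjusted p = 0.580), and for parenchyma minus the fat pad bta-miR-150 (-0.34, adjusted p = 0.669) and bta-miR-155 (-0.92, adjusted p = 0.254).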

How the results depend on the processing

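Of the 32 member differences that passed, 23 kept their direction and passed under every alternative run for them. log2(value + 10), no minimum mean and recomputed size factors changed no call of the contrasts within or between tissues, and were not run for the differences of an effect between tissues. The replicate block, run for the tissue contrasts alone, kept 7, 7 and 5 members called. Samples of 1 number correlated over 0.1 in 4, 6 and 8 of 12 cases, and the numbers were not taken to pair the tissues. The median r was 0.065, 0.10 and 0.14 within a number, against -0.021, -0.015 and -0.020 between numbers. This cutoff cannot show that the animals were separate, and the other fits treated the samples as independent. The count model planned as an alternative was not run, and limma on the scaled reads was used throughout. Differences between tissues refitted with rescaled values or without column 18PPP were added after seeing the data. A further 56 member values are not printed singly, and 19 of them changed sign under some alternative.

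After rescaling, milk replacer over control in liver called 0 members, and bta-miR-223 for liver over parenchyma was -0.13. Without column 18PPP the liver minus parenchyma difference for bta-miR-142-5p was -0.012. With all 48 samples, bta-miR-150 and bta-miR-155 no longer passed for liver over parenchyma (0.61 and 0.44). With 1 sample left out, called members ran from 0 to 1 (milk replacer over control, liver), 3 to 6 (the same, parenchyma) and 0 to 1 (ad libitum over restricted, fat pad). Log2 fold changes ran from -0.053 to 0.11 (bta-miR-150, parenchyma over fat pad) and, for milk replacer over control in parenchyma, from -2.77 to 0.96 (bta-miR-142-3p), -2.26 to 0.62 (bta-miR-142-5p), -1.92 to 0.41 (bta-miR-146a), -3.10 to -0.74 (bta-miR-150) and 0.03 to 2.60 (bta-miR-223). The cause of these changes was not tested. Depth limits bta-miR-223 most in the fat pad, where its 11.8 normalised read counts in ad libitum sample 3 stood for 6 reads, the lowest number listed.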
